A study of Mus musculus with 5 samples.

Results

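The genes described are the splicing factor genes of the mouse, taken as every protein-coding gene of GENCODE M21 (mm10) whose symbol starts with Srsf, Hnrnp, Sf3a, Sf3b, Snrp, Prpf or U2af. The rule gave 68 of 21951 protein-coding genes, with 11 Srsf, 20 Hnrnp, 3 U2af, 3 Sf3a, 6 Sf3b, 12 Snrp and 13 Prpf genes. What was measured is the acetylation of histone H3 at lysine 27 (H3K27ac), a mark of active promoters and enhancers, by CUT&Tag, in which an antibody directs a transposase to cut and tag the DNA around the mark. The cells were Treg cells of the large intestine, sorted as CD3+CD4+Foxp3-YFP+ from 2-week-old C57BL/6 mice, females and males pooled, with 60000 cells from 3 to 5 pooled mice in a library. The Ctrl mice were Foxp3Cre-YFP Setd2 f/+ and the KO mice Foxp3Cre-YFP Setd2 f/f, with 2 libraries of each genotype. Both genotypes carry the Cre under Foxp3, so the Ctrl Treg cells also lose 1 allele of Setd2, the methyltransferase that places the trimethyl mark on lysine 36 of histone H3 (H3K36me3).

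Splicing removes introns from the nascent transcript. The U1 and U2 particles, each a small nuclear RNA with its proteins, mark the start of the intron and its branch site. The U4/U6 and U5 particles then join, and the spliceosome is remodelled for catalysis. SR proteins, coded by the Srsf genes, mostly bind exons and favour their inclusion, whereas hnRNP proteins coat nascent RNA and often have the opposite effect. H3K36me3 is laid down along transcribed genes and has been linked to the choice of exons. The question put to the data was therefore whether the genes that code for the splicing machinery differ in H3K27ac between Treg cells with and without Setd2.

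Counts were taken in 124158 peaks, and the libraries held 2395002 (Ctrl 1), 3630447 (Ctrl 2), 3007444 (KO 1) and 4712473 counts (KO 2). A promoter peak lay within 3 kb of a transcription start site of the gene, and a gene body peak overlapped the gene and lay over 3 kb from every protein-coding start site. Counts were summed per gene for each kind of peak and are given as CPM, counts scaled to 1e6 counts of the normalized library, always in the order Ctrl 1, Ctrl 2, KO 1 and KO 2. Of 8 Treg and T cell marker genes 7 had a promoter peak, with summed promoter CPM from 787 to 1142, against 6.25 to 11.3 for CD8 markers, 13.1 to 24.4 for B cell, 7.74 to 24.0 for myeloid and 14 to 21.1 for epithelial markers. The remaining T cell gene, Trac, was not among the protein-coding genes used, so no promoter was searched for it. The markers of innate lymphoid and mast cells summed to 90.8 to 121 CPM, from 2 of 4 genes, Id2 and Rora, while Kit and Cpa3 had no promoter peak. Setd2 itself had promoter CPM of 26.2, 25, 27.2 and 33.3, a value that does not read the deleted allele and so does not check the genotype. Each library was a biological replicate from pooled mice, and the mice of the genotypes were littermates, but which litters went into which library is not stated.

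Nearly every splicing factor gene was marked at its promoter. Of the 68 genes, 67 had at least 1 promoter peak, where 12638 of 21951 protein-coding genes did. All 67 passed the count minimum of 10 counts in 2 libraries, as did 11562 of the 12638. Prpf40b, which codes for a U1-associated factor, had no promoter peak. The promoter stretches that follow belong to the 3 genes with the highest promoter level and the 3 with the lowest among those with a RefSeq promoter entry, Prpf40b included, and are shown so that the ends of this range can be read side by side. Each is the 250 bases before the RefSeq start of the gene (GRCm38.p6), 5′ to 3′ on the strand of the gene, with matches to the searched motifs in capitals.
Srsf5 (chr12:80945249-80945498, plus strand): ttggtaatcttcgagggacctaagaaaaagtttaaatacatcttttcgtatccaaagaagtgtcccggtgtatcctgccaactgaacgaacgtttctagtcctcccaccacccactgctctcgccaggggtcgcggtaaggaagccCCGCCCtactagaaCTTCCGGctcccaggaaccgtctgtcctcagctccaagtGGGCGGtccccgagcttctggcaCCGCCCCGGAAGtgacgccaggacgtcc
Hnrnpul1 (chr7:25754760-25755009, minus strand): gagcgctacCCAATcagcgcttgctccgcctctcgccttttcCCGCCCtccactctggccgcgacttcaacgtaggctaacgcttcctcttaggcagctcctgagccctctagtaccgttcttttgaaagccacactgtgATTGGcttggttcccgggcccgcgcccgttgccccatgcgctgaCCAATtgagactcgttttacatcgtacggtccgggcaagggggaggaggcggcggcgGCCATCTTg
Srsf10 (chr4:135855821-135856070, plus strand): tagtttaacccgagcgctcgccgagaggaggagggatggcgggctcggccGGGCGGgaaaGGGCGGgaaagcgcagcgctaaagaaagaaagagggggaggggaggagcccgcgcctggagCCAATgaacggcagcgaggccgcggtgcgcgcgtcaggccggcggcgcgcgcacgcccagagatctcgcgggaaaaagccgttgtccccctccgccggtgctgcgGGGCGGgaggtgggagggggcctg
Prpf40b (chr15:99294991-99295240, plus strand): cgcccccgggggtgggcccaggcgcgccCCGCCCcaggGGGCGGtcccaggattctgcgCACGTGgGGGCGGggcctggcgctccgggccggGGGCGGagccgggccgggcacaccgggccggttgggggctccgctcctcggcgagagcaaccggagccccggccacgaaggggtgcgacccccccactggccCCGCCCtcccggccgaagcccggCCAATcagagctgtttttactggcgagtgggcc
Prpf19 (chr19:10894981-10895230, plus strand): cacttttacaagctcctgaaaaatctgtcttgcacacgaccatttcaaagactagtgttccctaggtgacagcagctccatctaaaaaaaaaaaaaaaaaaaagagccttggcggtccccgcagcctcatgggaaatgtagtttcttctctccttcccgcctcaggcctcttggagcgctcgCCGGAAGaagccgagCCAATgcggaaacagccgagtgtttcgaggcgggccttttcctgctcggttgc
Snrpn (chr7:60140226-60140475, minus strand): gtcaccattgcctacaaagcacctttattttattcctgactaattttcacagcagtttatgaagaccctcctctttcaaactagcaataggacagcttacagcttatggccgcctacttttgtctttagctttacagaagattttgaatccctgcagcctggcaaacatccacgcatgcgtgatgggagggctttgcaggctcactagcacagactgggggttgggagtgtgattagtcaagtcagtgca

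The first 3 stretches and that of Prpf19 lay inside a promoter peak over all 250 bases, and those of Prpf40b and Snrpn overlapped none. In Snrpn, an imprinted gene for a neuronal Sm protein, the only promoter peak was centred 136.1 kb downstream of the annotated 5′ end, at another start site. The motifs were searched on both strands as ETS CCGGAAG, YY1 AAGATGGC, NRF1 GCGCATGCG, Sp/KLF GGGCGG, NF-Y CCAAT, CRE TGACGTCA, E-box CACGTG and the TATA box as TATAAA. Overlapping matches are merged in the capitals. The ETS letters were found in 28.8% of the 59 splicing factor promoters with an entry (17 genes), in 15.2% of the 9065 promoters with tested H3K27ac and in 9.5% of all 16522. The Sp/KLF letters were found in 66.1%, 58.9% and 44.4%, and those of NF-Y in 45.8%, 36.8% and 36.1%. The remaining motifs were less frequent, at 1.7% to 8.5% of the splicing factor promoters, with TATA in 8.5% against 6.2% of those with tested H3K27ac and E-box in 8.5% against 8.3%. Median GC content was 59.6% in both sets with H3K27ac, while the ratio of observed to expected CpG was 0.88 in the splicing factor genes and 0.74 in the promoters with tested H3K27ac. These shares are descriptions without a test, and a match is not evidence of binding.

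The promoter level, in CPM per kb of promoter peak averaged over the 4 libraries, had a median of 15.7 over the 67 genes against 13.0 over all 11562 genes tested. The median splicing factor promoter stood at percentile 69.3 of all genes, with 48 of 67 above the median gene, 7 in the top decile and 1 in the bottom decile. Ranked within single libraries the median percentile was 56.4, 72.0, 62.8 and 63.3. Their promoter peaks were also long, with a summed median of 3.09 kb against 2.26 kb, and 22 genes (32.8%) had a single promoter peak of 3 kb or more against 17.96% of all genes tested. Promoter peaks were shared with another coding gene in 25 of the 67 genes (37.3%, against 26.4% of all genes with a promoter peak). Examples are Hnrnpa2b1 with Cbx3, Srsf2 with Mfsd11, Prpf38a with Orc1 and Hnrnph2 with Gla, and for these genes the signal cannot be assigned to 1 of the pair.

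**Figure D1:**
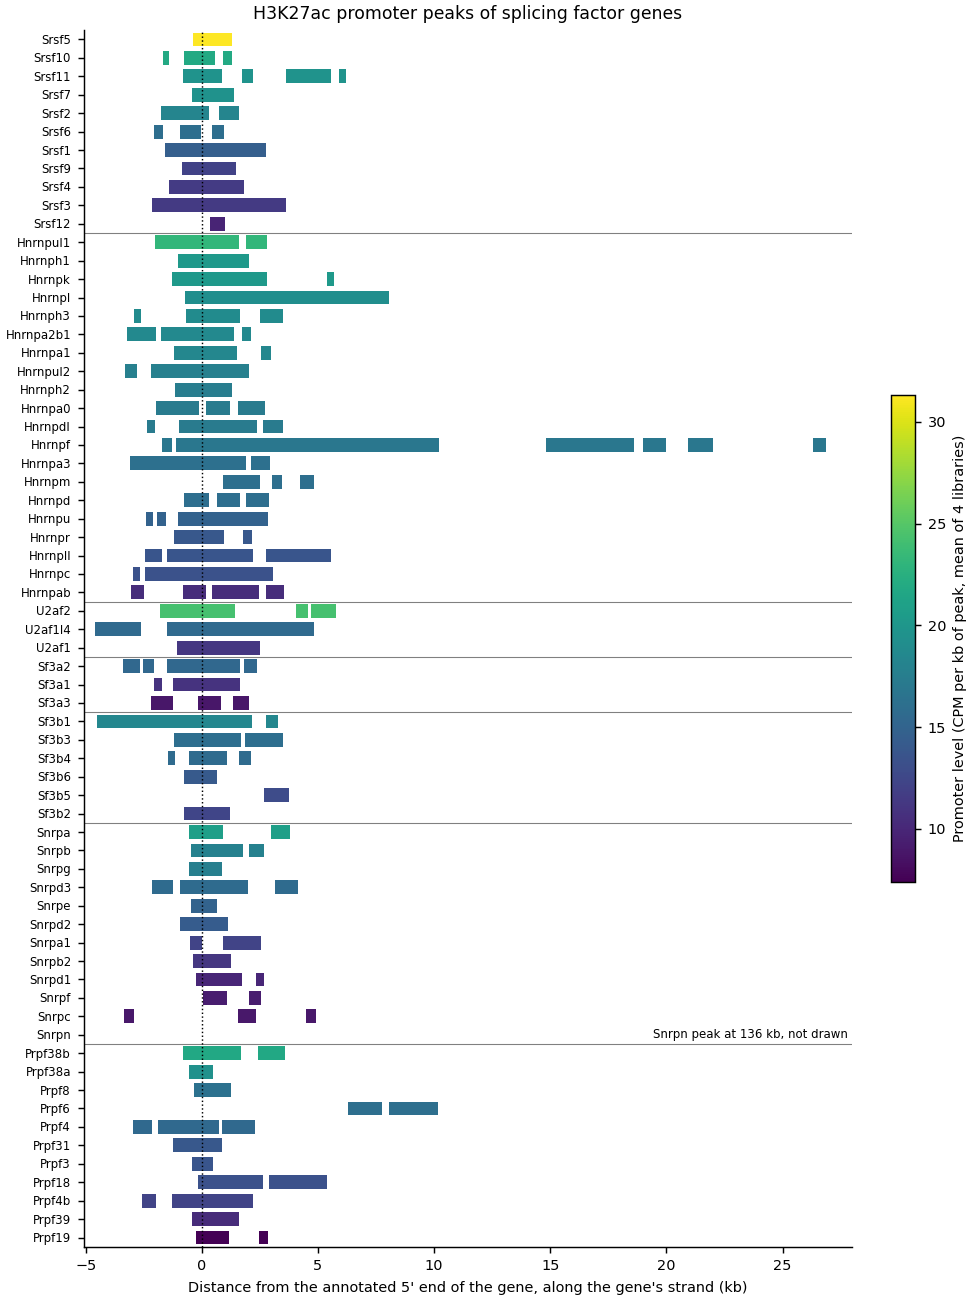
Promoter peaks of 66 splicing factor genes, drawn as bars by their distance in kb from the annotated 5′ end along the strand of the gene, grouped by family, ordered by level and coloured by CPM per kb of peak (mean of 4 libraries). Many genes have a bar that spans the 5′ end, and Hnrnpf carries 18.2 kb of promoter peak in 6 peaks. Prpf6 and Hnrnpm are examples of genes marked only downstream of the annotated 5′ end, and the peak of Snrpn lies beyond the axis.

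Among the SR protein genes, Srsf5 had the highest promoter level of all splicing factor genes, 31.3 CPM per kb of a 1.70 kb peak (percentile 99.5). Its summed CPM was 55.2, 33.6, 50.7 and 73.3, so that the Ctrl libraries were on either side of KO 1. Srsf12 was lowest of the family at 9.80 CPM per kb. Srsf1, which codes for a much studied SR protein, was intermediate at 14.5 CPM per kb (percentile 61.6). The family median was 15.99 CPM per kb.

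The Hnrnp genes had a median of 17.2 CPM per kb, and 19 of 20 lay above the median of all genes. Hnrnpul1, an hnRNP U-like gene, was highest at 23.1 CPM per kb and Hnrnpab lowest at 10.5. Hnrnpf, which codes for a binder of G-rich RNA, had the longest promoter peaks of all, 18.2 kb over 6 peaks and 5 start sites, of which 1 peak measured 11.3 kb. Hnrnpl, which codes for a binder of CA-rich RNA, came next with a single peak of 8.80 kb. Hnrnpll, known in lymphocytes for silencing the variable exons of Ptprc (CD45), had 7.21 kb of promoter peak at 13.7 CPM per kb.

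The genes of the branch site machinery were spread over the range. U2af2, the large subunit of the factor that recognises the polypyrimidine tract, reached 24.3 CPM per kb (percentile 96.3), whereas U2af1, the small subunit that contacts the AG at the end of the intron, stood at 11.1 (percentile 34.2). U2af1l4, a paralog of U2af1, had 8.31 kb of promoter peak that also serve Psenen, Lin37, Igflr1 and Gm49396. In the U2 particle, Sf3b1, the subunit that clamps the branch site, was highest of its family at 18.5 CPM per kb and Sf3b2 lowest at 12.3. Sf3a2 had 15.4 and Sf3a3 8.82 CPM per kb, the latter at percentile 16.3.

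The Snrp genes, which code for the Sm ring and for proteins particular to 1 particle, had the shortest promoter peaks of the large families, with a median of 1.87 kb, and a median level of 13.3 CPM per kb. Snrpa, a U1 protein, was highest at 20.8 CPM per kb and Snrpn lowest at 8.31, on a peak of 573 bp. The Prpf genes, many of them factors of the U4/U6 and U5 particles, had their lowest level at Prpf19, a ubiquitin ligase of the activated spliceosome, with 7.40 CPM per kb, and a median of 14.7. Prpf19 was the 1 splicing factor gene in the bottom decile of all genes. Short promoter peaks were also seen at Srsf12 (684 bp) and Prpf3 (906 bp).

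**Figure D2:**
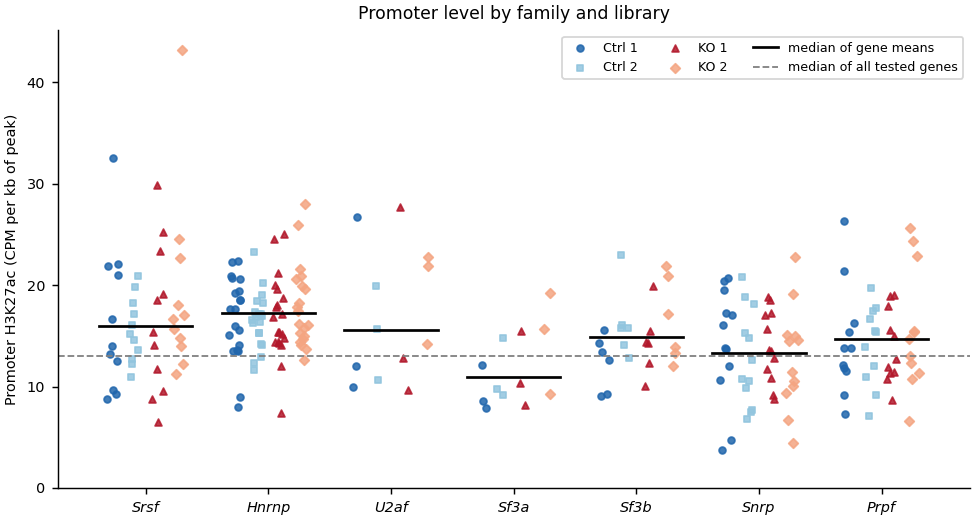
Promoter H3K27ac in CPM per kb of promoter peak for 66 splicing factor genes (points, 1 for each library), by family, with the family median of the gene means over all 67 genes (line) and the median of all tested genes (dashed, 13.0). The Hnrnp median of 17.2 is the highest and the Sf3a median of 10.9 the lowest, and the 4 libraries overlap in each family.

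In the comparison of KO with Ctrl, no difference in promoter H3K27ac of a splicing factor gene passed the test. None of 67 promoter sums passed an adjusted p of 0.05 in the quasi-likelihood test of edgeR, where 0.0% of 11562 genes did, and none passed in DESeq2. At an unadjusted p under 0.05 there was 1 gene (Hnrnpl), with 1.29% of all genes at that level. The KO libraries were both higher than either Ctrl library in 12 genes (17.9%, background 17.8%) and both lower in 8 (11.9%, background 8.93%). The fitted change was below 0 in 27 genes (40.3%, background 41.2%), and the median log2 fold change was 0.07, as in all genes. On these counts the splicing factor genes stood near the background. The share of all counts that fell in their promoters was 0.348%, 0.344%, 0.338% and 0.366% (exact permutation test, two-sided, p = 1.0, where 2 against 2 cannot go below 0.333). The 95% exact Clopper-Pearson intervals of these shares were 0.341% to 0.356%, 0.338% to 0.350%, 0.331% to 0.345% and 0.361% to 0.372%, and cover counting error only. As a share of the counts in promoter peaks of all genes the values were 0.905%, 0.921%, 0.888% and 0.896%, lower in both KO libraries (exact permutation test, two-sided, p = 0.333, the smallest possible), with intervals of 0.885% to 0.924%, 0.905% to 0.937%, 0.871% to 0.905% and 0.883% to 0.910%.

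The values of the genes whose libraries separated show how imprecise the differences were with n = 2 against 2. Hnrnpl had 118.5, 151, 176 and 228 CPM, with each KO library higher than each Ctrl library and a log2 fold change of 0.59 (SE 0.26, n = 2 against 2, adjusted p = 0.999 in edgeR, unadjusted 0.0436). Srsf2, an SR protein of nuclear speckles, had 38.5, 50, 54.0 and 71.6 CPM at its shared promoter (log2 fold change 0.50, SE 0.28). Sf3a1, a U2 subunit, had 25.3, 31.3, 33.2 and 50.6 CPM (0.57, SE 0.32). In these genes the lower KO library was closer to the higher Ctrl library than to the other KO library. Hnrnpul1 had 93.2, 86.0, 113 and 127 CPM (0.42, SE 0.24), and Snrpe, an Sm ring gene, had 11.8, 13.99, 19.0 and 21.1 CPM (0.63, SE 0.38).

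Of the genes with lower KO libraries, Hnrnph2, a binder of G-rich RNA, had 54.3, 41.4, 35.0 and 39.3 CPM (log2 fold change −0.35, SE 0.28). Prpf31, which holds U4/U6 and U5 together, had 28.95, 36.6, 24.96 and 25.9 CPM (−0.37, SE 0.30), and Srsf11 had 95.9, 91.96, 83.8 and 74.8 (−0.25, SE 0.24). Each of these changes was little larger than its standard error. Hnrnpa3 (−0.23, SE 0.24) and Snrpg, an Sm ring gene (−0.26, SE 0.31), completed the 5 genes with the smallest p in this direction. U2af1, U2af2, Srsf1 and Hnrnpll had log2 fold changes of 0.22, 0.11, 0.19 and 0.07, with standard errors from 0.25 to 0.30.

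Gene body H3K27ac was sparser. Gene body peaks were found in 40 of 68 genes (58.8%, against 69.7% of all genes with a tested promoter), and the 28 genes without were short, with a median length of 6.70 kb against 22.4 kb. The 143 gene body peaks had a median length of 467 bp and a median count of 10 per library. Of these, 57 overlapped an exon and 86 were intronic. The sums of 35 genes passed the count minimum, 5 did not, and 2 of the 35, Snrpa and Snrpb, reached it through the Ctrl libraries alone. Srsf1 had no gene body peak.

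In gene bodies the splicing factor genes were more often lower in KO than genes in general, although no single gene passed the test. None of 35 sums passed an adjusted p of 0.05 in edgeR (0.0% of 8887 genes did, smallest adjusted p of the 35 0.296) or in DESeq2. At an unadjusted p under 0.05 there were 9 genes, 8 lower and 1 higher, where 9.26% of all genes were at that level. The fitted change was below 0 in 28 genes (80.0%, background 63.2%). The KO libraries were both lower than either Ctrl library in 17 genes (48.6%, background 28.6%) and both higher in 0 (background 9.98%). Snrpa and Snrpb, which reached the count minimum through Ctrl alone, are among the 28 and among the 17, so the filter favours these counts. With no count minimum both KO libraries were lower in 18 of 40 (45.0%, background 27.3%). They were both higher in 1, Prpf31, where 1130 of 10767 genes were. The median log2 fold change was −0.71 against −0.19 in all genes. The share of all counts in these gene body peaks was 0.0616%, 0.0813%, 0.0457% and 0.0634%, with KO 2 above Ctrl 1 (exact permutation test, two-sided, p = 0.667), so that the genotypes overlapped in the pooled signal of these genes. Its 95% exact intervals were 0.0585% to 0.0648%, 0.0784% to 0.0842%, 0.0433% to 0.0482% and 0.0611% to 0.0657%.

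The size of the difference in medians rested on Ctrl 2 and KO 1, and was smaller without either. Without Ctrl 2 the median of the splicing factor genes was −0.21 against −0.07 in all genes, without KO 1 it was −0.40 against −0.31, without Ctrl 1 −0.72 against −0.27, and without KO 2 −1.01 against −0.22. The median deviation of the genes from their own mean, in log2(CPM + 1), was 0.07, 0.52, −0.49 and −0.04 over the libraries in their order. Thus Ctrl 2 and KO 1 stood apart, and Ctrl 1 and KO 2 differed little. With offsets from a loess curve on abundance the median was −0.46, against 0.01 in all genes, and 12 genes had both KO libraries lowest. The share of all genes without overlap under these offsets is not given here, so the 12 cannot be read as an excess.

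**Figure D3:**
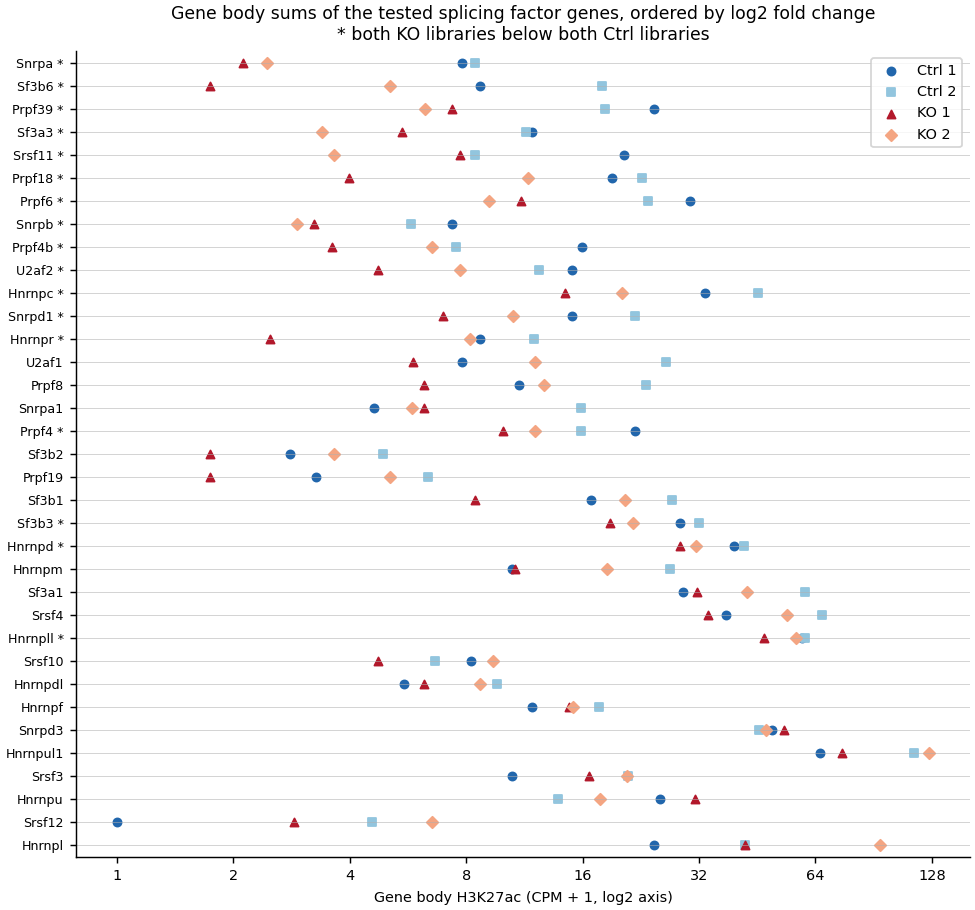
Gene body H3K27ac (CPM + 1, log2 axis) of the 35 tested splicing factor genes in each of the 4 libraries, ordered from the lowest to the highest log2 fold change. An asterisk marks the 17 genes with both KO libraries below both Ctrl libraries, and no gene has both KO libraries above both Ctrl libraries.

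The Prpf genes had the lowest family median, −1.35, with 7 of 7 tested genes below 0 (background 63.2%). Of these, 5 had both KO libraries lowest (71.4%, background 28.6%). With no count minimum 6 of 10 did, and Prpf31 had both KO libraries highest on few counts (1.36, 1.49, 3.35 and 3.83 CPM). Prpf39, which codes for a U1-associated factor, had 23.5, 17.3, 6.33 and 5.27 CPM, with both KO libraries well below both Ctrl libraries, a log2 fold change of −1.81 (SE 0.61) and an adjusted p of 0.296 in edgeR. Prpf6, which codes for the protein that bridges U5 and U4/U6, had 29.4, 22.6, 10.1 and 8.15 CPM (−1.51, SE 0.54, adjusted p 0.298). In both genes the replicates lay close together within each genotype. Prpf18, a factor of the second catalytic step, had 18.1, 21.7, 2.98 and 10.5 CPM (−1.52, SE 0.60), where KO 1 was far below KO 2. The promoters of these 3 genes gave 0.08, 0.42 and 0.13 for Prpf39, Prpf18 and Prpf6, so that only their gene body values were lower in KO.

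Among the genes of the U2 particle, Sf3b6, whose product touches the branch site adenosine, had 7.69, 17.0, 0.745 and 4.07 CPM (log2 fold change −2.28, SE 0.82, adjusted p 0.308). The counts behind it were few, with 57 in Ctrl 2 and 2 gene body peaks. All 4 tested Sf3b genes and both tested Sf3a genes had values below 0, where 63.2% of all genes did, with medians of −0.66 and −0.96. U2af1 had 6.79, 25.3, 4.84 and 11.0 CPM (−1.01, SE 0.62), and the sign turned without Ctrl 2 (0.26). U2af2 had 14.02, 11.3, 3.73 and 6.71 CPM, without overlap (−1.25, SE 0.72, unadjusted p = 0.0827 in edgeR). Of 5 tested Snrp genes 4 had values below 0, among them Snrpd1 with 14.02, 20.8, 5.96 and 9.58 CPM (−1.15, SE 0.60). Snrpa and Snrpb are 2 of these 4 and reached the count minimum through the Ctrl libraries alone, so the filter favours their low KO values.

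The Hnrnp and Srsf genes were closer to the median of all genes, at −0.12 over 10 and −0.06 over 5 tested genes. Hnrnpc, which codes for a binder of uridine tracts, had 32.1, 44.3, 13.4 and 19.2 CPM (log2 fold change −1.22, SE 0.46, adjusted p 0.332 in edgeR). Hnrnpll, with 5 gene body peaks, had KO values just under those of Ctrl, at 57.9, 59.2, 46.2 and 55.8 CPM (−0.20, SE 0.36). Hnrnpl, named here after its values were seen, went the other way in its gene body as at its promoter, with 23.5, 41.1, 41.0 and 92.7 CPM (1.04, SE 0.38, adjusted p 0.317). Its KO 1 value lay next to that of Ctrl 2, and the genotypes overlapped. The promoter peak of Hnrnpl ran to 8073 bp past the 5′ end, and the first gene body peak began at 8456 bp. Promoter and gene body values of Hnrnpl thus come from neighbouring peaks.

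**Figure D4:**
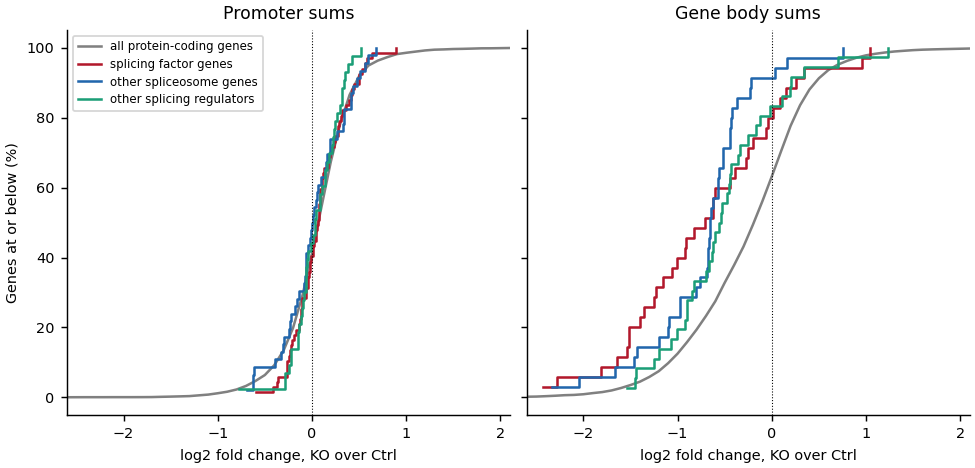
Cumulative share of genes (percent) by log2 fold change of KO over Ctrl for promoter sums (left) and gene body sums (right). At promoters the 4 curves run together, with 40.3% of splicing factor genes and 41.2% of all genes below 0. In gene bodies the curves of the splicing factor genes and of both related lists lie to the left of all genes, with 80.0%, 91.4% and 83.3% of values below 0 against 63.2%.

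Other genes of the pathway had promoter medians near 0 and gene body medians below that of all genes. Of 47 spliceosome genes outside the name rule, 46 had a tested promoter (median log2 fold change 0.01, 0 passing the test, both KO libraries highest in 7, or 15.2%, and lowest in 8, or 17.4%, against 17.8% and 8.93% of all genes) and 35 a tested gene body (median −0.65, 0 passing, 32 below 0, both KO libraries lowest in 17, or 48.6% against 28.6% of all genes, and highest in 1). Eftud2, the GTPase of U5, had gene body CPM of 14.5, 36.01, 8.94 and 9.82, and Crnkl1, a scaffold of the activated spliceosome, 21.7, 25.3, 7.08 and 9.82. Of 44 splicing regulators outside the rule, 43 had a tested promoter (median 0.04, both KO libraries highest in 12, or 27.9%, and lowest in 2, or 4.65%). A tested gene body was found in 36 of them (median −0.55, 30 below 0), and both KO libraries were lowest in 11, or 30.6%, near the 28.6% of all genes. At promoters Ddx39b, a helicase gene, gave 0.68 (SE 0.30) and Plrg1, of the Prp19 complex, −0.69 (SE 0.30), neither passing the test. The median deviation of the spliceosome gene bodies was 0.54 in Ctrl 2 and −0.34 in KO 1.

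Among 12 genes for readers of H3K36me3 and partners of Setd2, 10 had a tested gene body, with 9 below 0 and a median of −0.58. Psip1, which codes for a reader of H3K36me3 that interacts with splicing factors, had promoter CPM of 27.2, 14.6, 38 and 33.3 (log2 fold change 0.79, SE 0.36) and gene body CPM of 12.2, 12.2, 5.22 and 3.59 (−1.48, SE 0.75). Promoter and gene body moved in opposite directions, each without overlap between genotypes. Neither value passed the test, with adjusted p of 0.999 and 0.539 in edgeR. Setd2 itself had gene body CPM of 25.3, 59.2, 18.6 and 32.1.

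The depth behind a gene body sum moved with the result. In the lower 2 quartiles of all tested genes by mean count, 25 splicing factor genes had medians of −0.99 (12 genes) and −1.01 (13 genes), against −0.29 and −0.35 for all genes there. In the next quartile 7 genes had −0.28, as all genes did (−0.28), and in the top quartile 3 genes had 0.15 against 0.0027. With at least 50 counts in 2 libraries, 16 genes had a median of −0.39, against −0.23 over 4970 genes at that minimum. Of the 16 genes 12 were below 0 and 6 had both KO libraries lowest. The shares of all genes at that minimum are not given here, so neither count can be read as an excess. The gap to all genes was thus larger in genes with few counts, and the part of depth in it was not tested.

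At the level of single peaks, 0 of 210 tested splicing factor peaks passed the test (0.00134% of 74550 peaks did, smallest adjusted p of the 210 0.998), and 21 had an unadjusted p under 0.05 (background 4.24%). Of 88 tested gene body peaks, 14 were lower in KO at an unadjusted p under 0.05 (15.9%, background 4.23% of gene body peaks), and 23 had both KO libraries lowest (26.1%, background 21.1%). These counts include peaks that reached the count minimum in 1 genotype alone, where the filter favours a change. Examples through Ctrl are peaks of Prpf39 (12, 23, 2 and 7 counts, 51.6% masked), Prpf18 (18, 15, 3 and 9) and Hnrnpul1 (10, 15, 8 and 7). The total of such peaks within the counts above is not given here. Another peak of Hnrnpul1 (4, 4, 12 and 12) reached it through KO. A split of the peaks by repeat content, chosen after the data were seen, separated them further. Of the 143 gene body peaks, 21 (14.7%, against 9.9% of all gene body peaks) were masked as repeats over 50% or more of their length in the reference. Of these 11 were tested, and 9 had both KO libraries lowest (81.8%, background 26.8%), with a median log2 fold change of −1.10 against −0.32. The Prpf39 peak named above, which the filter admitted through Ctrl alone, is among the 9. Of 77 tested peaks under 50%, 14 had both KO libraries lowest (18.2%, background 20.6%), and the median was −0.39 against −0.11. With the masked peaks left out of the sums, the gene body median was −0.62 over 33 genes, against −0.17 in all genes.

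**Figure D5:**
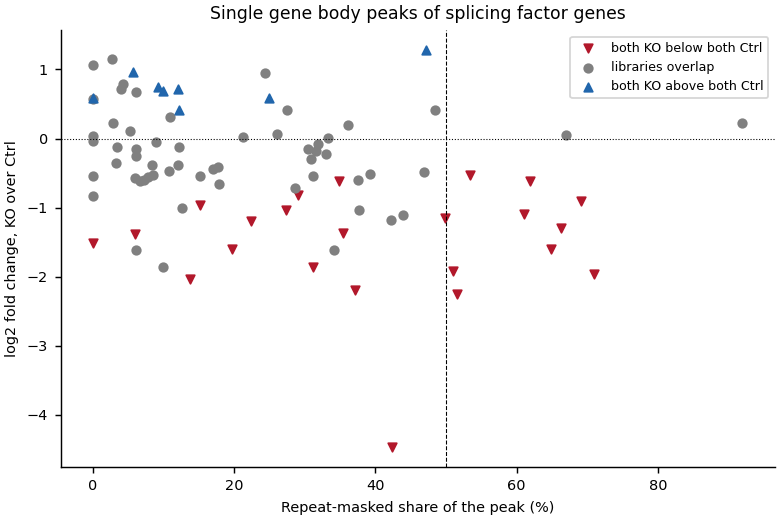
Log2 fold change of KO over Ctrl for each of the 88 tested gene body peaks of splicing factor genes against the repeat-masked share of the peak in percent, with the 50% line dashed. To the right of the line 9 of 11 peaks have both KO libraries below both Ctrl libraries, and to the left 14 of 77.

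The strongest intronic gene body peaks of the 3 genes with the smallest p show what such sequence looks like. The central 200 bases of each are printed on the strand of the gene (GRCm38.p6), with the bases masked as repeats in capitals.
Prpf39 (chr12:65050499-65050698, plus strand): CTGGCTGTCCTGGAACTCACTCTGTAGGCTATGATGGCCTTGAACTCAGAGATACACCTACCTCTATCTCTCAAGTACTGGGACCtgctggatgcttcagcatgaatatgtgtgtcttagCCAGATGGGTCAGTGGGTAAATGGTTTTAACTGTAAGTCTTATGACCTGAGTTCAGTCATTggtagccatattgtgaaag
Prpf6 (chr2:181629589-181629788, plus strand): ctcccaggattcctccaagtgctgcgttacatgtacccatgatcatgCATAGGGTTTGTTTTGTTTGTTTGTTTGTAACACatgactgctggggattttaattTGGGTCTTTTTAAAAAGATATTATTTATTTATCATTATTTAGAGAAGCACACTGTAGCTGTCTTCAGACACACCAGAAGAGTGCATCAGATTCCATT
Sf3b6 (chr12:4825517-4825716, plus strand): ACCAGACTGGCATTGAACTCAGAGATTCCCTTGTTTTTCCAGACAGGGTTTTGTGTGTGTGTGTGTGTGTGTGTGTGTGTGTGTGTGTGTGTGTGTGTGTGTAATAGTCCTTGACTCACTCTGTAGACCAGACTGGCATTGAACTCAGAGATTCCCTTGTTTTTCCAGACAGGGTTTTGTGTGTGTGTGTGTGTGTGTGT

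The peak in Prpf39 lay 14.3 kb from the 5′ end, with 21, 16, 12 and 6 counts. That in Prpf6 lay 37.8 kb in, with 6, 33, 1 and 11 counts, and that in Sf3b6 8.07 kb in, with 11, 35, 2 and 13 counts. The masked share of the printed bases was 73.0%, 65.5% and 100%, and the Sf3b6 stretch holds a run of GT repeats. None of the 3 peaks passed the test (adjusted p 0.998 in edgeR). Per the study's methods, reads that aligned to more than 1 locus and duplicate reads had been removed before counting. In the central 200 bases of all 143 gene body peaks, AP-1 letters (TGANTCA) were found in 4.2% against 6.4% of all gene body peaks, RUNX letters (TGTGGTT) in 5.6% against 5.2% and the ETS letters in 0.7% against 0.9%.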

How the data were processed

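H3K27ac CUT&Tag was measured in 2 Ctrl and 2 KO libraries, and an IgG library without values in the peak table was in no comparison. The authors deposited raw read counts per peak, not normalized. Their processing notes name FastQC, Bowtie2, MACS2 and bedtools with mm10, and versions are not given in the sources used here. Per the methods, the authors kept uniquely mapped reads, removed duplicates, called peaks against IgG and merged them. Genes came from GENCODE M21 basic transcripts. Counts were summed over promoter peaks (within 3 kb of a start site; a peak may serve several genes) and over gene body peaks, and sums with at least 10 counts in 2 libraries were tested over all genes with edgeR 4.0.16 in R 4.3.3 (quasi-likelihood test, TMM factors of the peak table, Benjamini-Hochberg over all genes of a table). Standard errors are the log2 fold change over the square root of F. DESeq2 1.42.0 and the other alternatives are given after the results. Intervals of counts would cover counting error only. The script was tested on simulated counts.

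Members and lists were chosen with earlier results of these data known. Named genes are the 5 members higher and 5 lower with the smallest p among those without overlap, the highest and lowest level of each family, the 3 longest and shortest promoter peaks, those without a peak, and U2af1, U2af2, Srsf1 and Hnrnpll. Promoter sequences were from RefSeq (GRCm38.p6) for 59 of 68 genes. 1 gene that the rule names is not reported here.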

Additional observations from a re-analysis of the deposited data

How the results depend on the processing

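No promoter sum of the splicing factor genes passed under any alternative run. With the replicate number as a block, 6 of 35 gene body sums passed (Prpf39, Prpf6, Sf3b6, Hnrnpc and Prpf18 lower, Hnrnpl higher), among 958 of 8887 genes, as did 1 peak, in Hnrnpl. The log2 fold changes were then −1.79, −1.51, −2.45, −1.23, −1.66 and 1.02. The numbers are not known to pair the libraries: with only 2 pairs, the difference between replicates correlated at r = 0.26 between genotypes across 74550 peaks. The promoter median of 0.065 (0.067 in all genes) was 0.009 with total counts as library size, −0.006 with loess offsets and −0.051 with a minimum of 50 counts, where all genes had 0.011, −0.007 and −0.046. Leaving out 1 library gave −0.019 to 0.074 at promoters and −1.01 to −0.21 in gene bodies. In gene bodies, the loess median of all genes was 0.013, and with a minimum of 50 counts 12 of 16 sums were below 0 and 6 had both KO libraries lowest. Of 338 alternative values of 23 single gene changes, 329 kept their sign. Leaving out 1 library turned the sign of U2af1 at its promoter (−0.12 to 0.44, below 0 without KO replicate 2) and in its gene body (−1.78 to 0.26, above 0 without Ctrl replicate 2), and at the promoters of U2af2 (−0.086 to 0.33) and Hnrnpll (−0.11 to 0.26). Other sign changes were those of the U2af2 promoter with loess offsets (−0.050) and of the Hnrnpll promoter with loess offsets (−0.069), 50 counts (−0.042) and a limit of 1 kb (−0.003). The median percentile of promoter levels was 70.8 for CPM not divided by length and 69.8 with a limit of 1 kb. The low counts of gene body sums limit the precision. The count of gene bodies without overlap under other scalings and the split by repeat content were added after the data were seen. With no count minimum in the scaling as well, 16 of 40 gene bodies had both KO libraries lowest. For this count, and for the counts with loess offsets or a minimum of 50 counts, the share of all genes is not given here.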
